A study of Mus musculus with 12 samples.

Results

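The zinc finger genes described here are the protein-coding mouse genes named Zfp followed by a number, without Zfp36, Zfp36l1 and Zfp36l2, that had 30 or more counts in 3 or more of 12 RNA-seq libraries of bone marrow-derived macrophages. Of 391 such genes, 293 met the count rule, out of 46078 gene identifiers in the files. The other 98 comprised 21 with no count in any library, 45 whose highest count was between 1 and 9, and 32 that reached 10 counts or more. Among members, 216 had 30 counts in all 12 libraries and 228 averaged at least 30 counts in each of the 4 groups, while 25 averaged that in 3 groups, 32 in 2 and 8 in 1. Just inside the threshold lay Zfp808 with 31 as the third highest count and Zfp105, Zfp541 and Zfp78 with 32, and just outside it lay Zfp433 and Zfp937 with 29 and Zfp551 and Zfp827 with 28.

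The macrophages came from male C57BL/6 mice that all lacked Apoe, the gene of apolipoprotein E. Dicer KO mice are labelled LysMcre/+;Dicerfl/fl;ApoE-/- and their control littermates LysMcre/+;Dicer+/+;ApoE-/-, although another label field calls the controls wildtype and the names of their files mark the LysM locus as wildtype. LysM-Cre is a recombinase placed in the myeloid gene Lyz2, and the product of Dicer1 cuts microRNAs from their precursors. Marrow was cultured for 7 days with L929 supernatant, every culture received diluted ethanol overnight, and lipopolysaccharide (LPS, 100 ng/ul per the labels) or saline vehicle was added for 6 h. The 4 groups of 3 libraries are Dicer KO LPS, Dicer KO vehicle, control LPS and control vehicle. No label says whether the replicates came from separate mice, so p-values measure the spread between these libraries, which may be technical.

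Libraries held 16172600 to 18886948 counts on genes. Levels below are CPM, counts scaled to library size, with library sizes adjusted by edgeR's trimmed mean of M values (TMM). A gene is called higher or lower at an adjusted p under 0.05 in edgeR's quasi-likelihood test across 13837 genes. TMM sets the typical gene near no change, so each fold change stands relative to the typical gene. With library totals as the scale instead, the median log2 fold change of all genes moved to −0.12 for genotype in vehicle, −0.38 for genotype in LPS, −0.85 for LPS in Dicer KO and −0.58 for LPS in control. Dicer1 averaged 19.7 ± 0.369 CPM in Dicer KO vehicle and 43.7 ± 1.44 CPM in control vehicle (SD, n = 3 each), and 15.5 ± 1.10 CPM in Dicer KO LPS against 49.4 ± 2.84 CPM in control LPS. These counts span the whole gene and do not measure how much of the floxed exon remained. Lyz2 averaged 14.1 ± 1.49 CPM in Dicer KO vehicle and 5714 ± 335 CPM in control vehicle, although the titles give both genotypes the same single LysM-Cre allele. It averaged 18.9 ± 2.38 CPM in Dicer KO LPS and 4059.96 ± 200.1 CPM in control LPS. Loss of Dicer1 and what differs at the Lyz2 locus, which holds Cre, therefore cannot be told apart in any genotype comparison below. Summed macrophage markers (7 genes, all detected) stood at 6699 to 9397 CPM in all libraries. Of the 5 T and NK markers, 1 was at 0 and their sum, 33.9 to 36.9 CPM in Dicer KO LPS and 12.8 to 15.5 CPM in control LPS, was almost all Lck, and 3 of 4 erythroid markers were at 0. Earlier results of these data found a pair of libraries apart from their groups, Dicer KO vehicle replicate 2 and the third control vehicle replicate, and counts that leave out this pair are given below. In bulk RNA, fewer cells of a kind and less RNA per cell cannot be told apart.

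Zfp genes encode proteins with C2H2 fingers, short loops held by a zinc ion, each of which contacts a few bases of DNA or in some proteins RNA. Many carry a KRAB box at the amino end, which binds Trim28 (KAP1), and Trim28 brings the histone methyltransferase Setdb1, heterochromatin protein and the NuRD complex to the bound site. KRAB zinc finger genes lie in clusters of duplicated copies, and many of their proteins are known for silencing transposable elements. Members without a KRAB box include RNA-binding, ribosome-associated and developmental factors.

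A pattern search of the translated coding sequences found the KRAB pattern in 165 of the 293 members, and 279 members had at least 2 C2H2 patterns, with medians of 12 per protein in KRAB members and 7 in the others. Zfp142 had the most, 36, and Zfp462 and Zfp619 had 33. Chromosome 7 carried 75 members, chromosome 17 carried 41 and chromosome 13 carried 31. With neighbours at most 250 kb apart, 12 runs of 5 or more members held 115 members, 90 of them with the KRAB pattern. The longest run was of 20 KRAB members from Zfp712 to Zfp273 at chr13:67038596-67827002, followed by 17 from Zfp677 to Zfp946 at chr17:21383748-22456689.

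Most members were expressed at a low level. Their mean level over the 12 libraries had a median of 7.9996 CPM, against 17.1 CPM over all genes tested, and ran from 0.662 CPM for Zfp882 to 180.5 CPM for Zfp106. Per kilobase of exon, KRAB members had a median of 1.27 CPM per kb and the other members 2.95 CPM per kb, so the KRAB members stood lower also when length is taken into account. Of the 124 members above 10 CPM, 42 had the KRAB pattern. The search, which can miss divergent domains, found no KRAB pattern in the 4 highest by CPM. These were Zfp106, an RNA-binding protein needed for motor neuron and muscle maintenance, Zfp207, which loads Bub3 onto kinetochores, Zfp263, and Zfp91. Zfp91 is an atypical ubiquitin ligase that acts on the NF-kappaB-inducing kinase. The opposite-strand gene Gm26899 covers 26.1% of the exon bases of Zfp106. Per kilobase the order changed, with Zfp263 at 38.3 and Zfp385a at 33.03 CPM per kb above Zfp207 at 26.6 CPM per kb.

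All members together took 0.347 to 0.351% of gene counts in Dicer KO LPS and 0.535 to 0.541% in Dicer KO vehicle libraries. Of control libraries they took 0.404 to 0.433% with LPS and 0.575 to 0.609% with vehicle. The 4 ranges did not overlap, and LPS libraries were lower than vehicle libraries in both genotypes. After TMM scaling the summed level split by class. KRAB members summed to 1156 to 1178 CPM in Dicer KO LPS and 1353 to 1393 CPM in Dicer KO vehicle, and to 1204 to 1266 CPM in control LPS and 1377 to 1482 CPM in control vehicle. The other members summed to 3728 to 3769 CPM in Dicer KO LPS and 3111 to 3162 CPM in Dicer KO vehicle, and to 3335 to 3500.2 CPM in control LPS and 3079.9 to 3184 CPM in control vehicle. On this scale and by this pattern, the KRAB sum was lower with LPS and the sum of the others higher. Neither sum overlapped between treatments in either genotype. On library totals all members together were lower with LPS, as the shares above show. The classes rest on the KRAB pattern, which can miss divergent domains, and genes of high level weigh most in a sum. In control, Zfp263 averaged 266 CPM with LPS and 103 CPM with vehicle, Zfp207 220 and 107 CPM, and Zfp106 155 and 200 CPM. A gene such as Zfp263 placed in the other class could change the split of the sums, which was not tested. Of the 128 others, 41 were called higher and 47 lower with LPS in control, beside 38% and 41.1% of all genes.

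The comparisons of LPS with vehicle describe how the members stood after 6 h of TLR4 stimulation. In Dicer KO macrophages 67 of 293 members were higher and 159 lower with LPS, with a median log2 fold change of −0.33. Over all genes tested 80.1% were called, 37.4% higher and 42.7% lower, with a median of −0.10. In control macrophages 66 members were higher and 148 lower, with a median of −0.29, and of all genes 79.1% were called, 38% higher and 41.1% lower, with a median of −0.06. With library totals as the scale 21 members were higher and 246 lower in Dicer KO, and 24 higher and 237 lower in control. Leaving out that pair of libraries, the counts were 65 higher and 159 lower in Dicer KO, and 68 higher and 155 lower in control. As shares, 54.3% of members were lower with LPS in Dicer KO and 50.5% in control. Genes of low level were more often lower with LPS. Among the 201 members at a mean of 2 to 20 CPM, 58.2% were lower with LPS in Dicer KO and 53.7% in control, against 60.4% and 56.3% of the 4047 protein-coding genes at that level. At that level the share of members called lower was no larger than that of protein-coding genes in general.

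Calls lower with LPS outnumbered calls higher in KRAB members and in the others, by more in KRAB members. Of the 165 KRAB members, 23 were higher and 99 lower with LPS in Dicer KO, with a median log2 fold change of −0.58, and 25 were higher and 101 lower in control, with a median of −0.48. Of the 128 other members, 44 were higher and 60 lower in Dicer KO (median −0.16), and 41 were higher and 47 lower in control (median −0.019). Between 2 and 20 CPM the medians were −0.56 for 134 KRAB members and −0.28 for 67 others in Dicer KO, and −0.45 and −0.043 in control, beside −0.55 in Dicer KO and −0.40 in control for protein-coding genes of that level. The 31 genes tested that carry KRAB and C2H2 patterns under other names had medians of −1.01 in Dicer KO and −0.69 in control, with 24 and 21 of them lower. The 37 Zbtb genes, another family of finger proteins, had medians of 0.0043 and −0.08. These differences between classes were not tested.

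**Figure D1:**
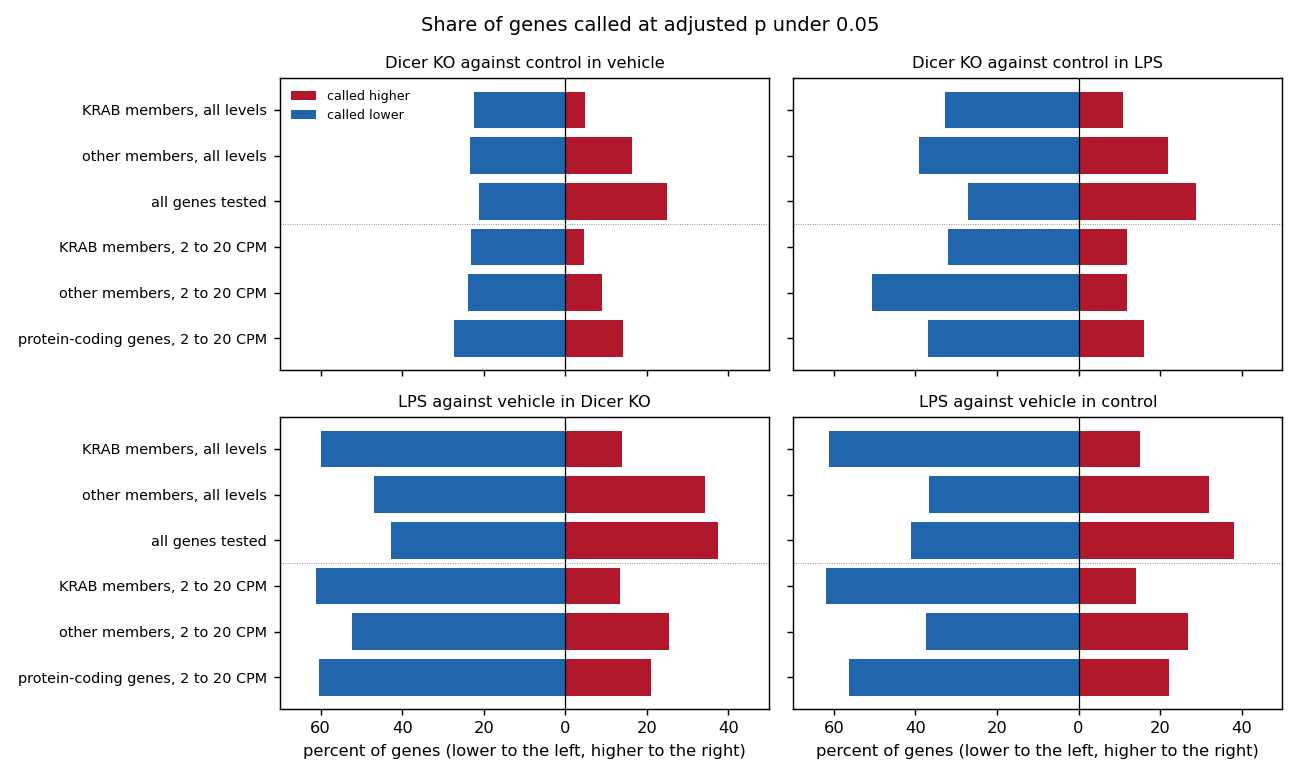
Percent of genes called lower (bars to the left) and higher (bars to the right) at adjusted p under 0.05 in the 4 pairwise comparisons, for KRAB members, other members and all genes tested, and below the dotted line for the same classes at a mean of 2 to 20 CPM. With LPS 99 of 165 KRAB members in Dicer KO and 101 in control were lower, or 61.2% in control against 41.1% of all genes, and the gap narrows against protein-coding genes of the same level.

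The LPS responses of the members in the 2 genotypes were then set side by side. Across the 293 members the log2 fold changes of Dicer KO and control macrophages, which share no library, correlated with Pearson's r = 0.917 and Spearman's rho = 0.843, as a description across genes that are not independent. Called the same way in both were 51 higher and 121 lower members, 33 were called in neither and 8 in opposite directions. The 8 were Zfp213, Zfp46, Zfp710 and Zfp959, higher in Dicer KO and lower in control, and Zfp326, Zfp518b, Zfp52 and Zfp874a, lower in Dicer KO and higher in control. Over all genes tested, 4496 were higher in both, 4886 lower in both and 251 opposite, out of 13837. The test of the difference itself, given below, called 82 members.

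**Figure D2:**
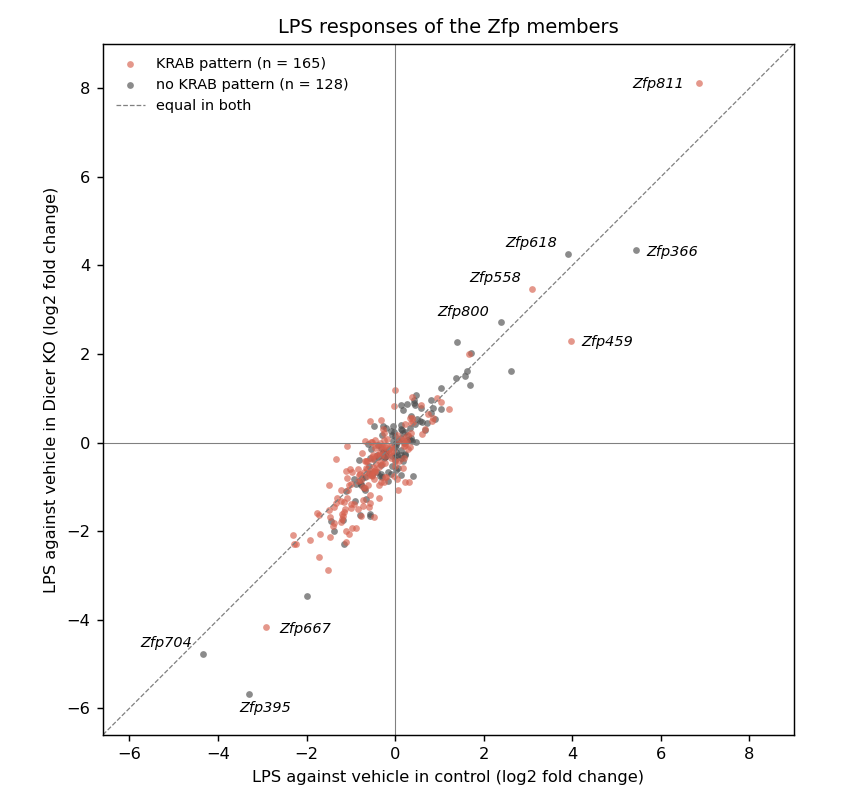
Log2 fold change of LPS against vehicle for each of the 293 members in Dicer KO (vertical axis) and in control (horizontal axis), coloured by the KRAB pattern, with the dashed line marking equal responses. Zfp811 lies at 8.13 in Dicer KO and 6.86 in control, and Zfp395 at −5.67 in Dicer KO lies below its −3.31 in control.

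The largest LPS response was that of Zfp811 (ENSMUSG00000055202, GRCm38 chr17:32795676-32809931, minus strand), a KRAB gene with 14 C2H2 patterns. It measured 29.8, 27.1 and 29.6 CPM in Dicer KO LPS, 0.0931, 0.0515 and 0.140 CPM in Dicer KO vehicle, 10.9, 11.7 and 12.96 CPM in control LPS and 0.121, 0.122 and 0.0418 CPM in control vehicle libraries. Vehicle cultures held next to none of this transcript, with 6 counts over the 3 Dicer KO vehicle and 7 over the 3 control vehicle libraries, while the LPS groups held 1150 counts in Dicer KO and 568 in control. With LPS it rose in Dicer KO (log2 fold change 8.13 ± 0.20 SE, adjusted p = 2.07e-17) and in control (log2 fold change 6.86 ± 0.22 SE, adjusted p = 9.95e-16), and within LPS every Dicer KO library was above every control library (log2 fold change 1.28 ± 0.10 SE, adjusted p = 3.19e-09). The difference of the 2 responses was 1.27 on the log2 scale and not called (adjusted p = 0.223).

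The region around the start of Zfp811 is shown because of that response, from 250 bases before to 50 after the start, RefSeq on GRCm38.p6, chr17:32809882-32810181, minus strand, 5′ to 3′. It would show in capitals any match to 5 motifs searched on both strands, and it holds none.
Zfp811 promoter: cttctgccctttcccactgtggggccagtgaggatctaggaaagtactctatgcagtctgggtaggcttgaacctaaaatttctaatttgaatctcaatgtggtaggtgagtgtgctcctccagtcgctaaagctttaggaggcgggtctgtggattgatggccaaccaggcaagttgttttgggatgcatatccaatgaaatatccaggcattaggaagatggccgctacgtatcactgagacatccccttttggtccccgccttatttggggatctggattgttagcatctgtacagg
The motifs were kappaB (GGGA and TTCC 2 bases apart), the interferon response element (GAAA and GAAA 2 bases apart), the interferon gamma activated sequence (TTCNNNGAA), AP-1 (TGANTCA) and the hypoxia response core (ACGTG). The window has 5 CpG and 48.3% GC. Of 248 members with a RefSeq promoter, kappaB letters were in 2.82%, against 1.43% of 27025 promoters, and TTCNNNGAA in 16.9% against 8.47%. TGANTCA was in 3.23% of members against 7.93%, the interferon response element in 2.02% against 3.49%, and ACGTG in 22.2% against 19.7%. Of the 16 promoters of members at least 2-fold higher with LPS in control, 8 held ACGTG, 4 held TTCNNNGAA and none held kappaB, the interferon response element or TGANTCA. Of the 41 promoters of members at least 2-fold lower, 6 held ACGTG, 8 TTCNNNGAA, 1 kappaB, 1 TGANTCA and none the interferon response element. A match is a description of letters and not a binding site.

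Other members were close to silent in vehicle and present with LPS. Zfp618, whose human counterpart ZNF618 binds UHRF2 and hydroxymethylated DNA, measured 9.09, 7.43 and 8.74 CPM in Dicer KO LPS, 0.512, 0.463 and 0.327 CPM in Dicer KO vehicle, 9.24, 10.5 and 8.68 CPM in control LPS and 0.647, 0.530 and 0.710 CPM in control vehicle libraries. It rose in Dicer KO (log2 fold change 4.26 ± 0.20 SE, adjusted p = 3.67e-13) and in control (log2 fold change 3.90 ± 0.18 SE, adjusted p = 2.03e-13), and the LPS and vehicle libraries did not overlap. Zfp558, a KRAB gene whose human counterpart represses the mitochondrial gene SPATA18, measured 6.91, 8.56 and 8.66 CPM in Dicer KO LPS, 0.791, 0.824 and 0.560 CPM in Dicer KO vehicle, 7.34, 6.42 and 5.40 CPM in control LPS and 0.647, 0.937 and 0.627 CPM in control vehicle libraries. All 6 LPS libraries stood above all 6 vehicle libraries, and it rose in Dicer KO (log2 fold change 3.47 ± 0.21 SE, adjusted p = 1.38e-11) and in control (log2 fold change 3.10 ± 0.20 SE, adjusted p = 5.57e-11). Zfp366, also called DC-SCRIPT and a marker of dendritic cells, measured 2.55, 2.55 and 3.09 CPM in Dicer KO LPS, 0.186, 0.154 and 0.0467 CPM in Dicer KO vehicle, 0.852, 1.09 and 0.682 CPM in control LPS and 0, 0.0407 and 0 CPM in control vehicle libraries. Control vehicle held 1 count of it in all and Dicer KO vehicle 8, against 109 in Dicer KO LPS and 42 in control LPS, so no fold is given for control. Of the 6 dendritic markers of the fixed list, only 2 had enough counts to be tested. The 6 summed in Dicer KO to 16.6 to 17.8 CPM with LPS and 2.52 to 4.42 CPM with vehicle. In control they summed to 6.78 to 8.45 CPM with LPS and 1.18 to 1.54 CPM with vehicle, the same order of groups as Zfp366. Which markers made up the sum is not shown, and their part in the values of Zfp366 was not tested.

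Some members were already well expressed and rose further. Zfp800, needed for pancreas development in mice, measured 175, 170.5 and 177 CPM in Dicer KO LPS, 26.6, 25.8 and 26.2 CPM in Dicer KO vehicle, 94.6, 98.7 and 103 CPM in control LPS and 19.4, 18.3 and 19.3 CPM in control vehicle libraries, and rose 6.64-fold in Dicer KO (log2 fold change 2.73 ± 0.05 SE, adjusted p = 6.18e-19) and 5.20-fold in control (log2 fold change 2.38 ± 0.05 SE, adjusted p = 6.51e-18). Its libraries fall into 4 separate ranges, with Dicer KO LPS at the top. Zfp281, which represses Nanog with the NuRD complex in stem cells, measured 156, 168 and 159.8 CPM in Dicer KO LPS, 41.6, 36.6 and 40.5 CPM in Dicer KO vehicle, 77.7, 72.8 and 78.1 CPM in control LPS and 23.1, 23.5 and 22.6 CPM in control vehicle libraries, and was 4.07-fold higher with LPS in Dicer KO (log2 fold change 2.02 ± 0.06 SE, adjusted p = 1.33e-16) and 3.30-fold higher in control (log2 fold change 1.72 ± 0.06 SE, adjusted p = 3.17e-15). Zfp503, Zfp691 and Zfp459 stood lower in vehicle. Zfp503 (Nolz1), a factor of striatal development, measured 9.99, 11.04 and 10.7 CPM in Dicer KO LPS, 3.54, 3.76 and 3.03 CPM in Dicer KO vehicle, 10.02, 12.2 and 11.7 CPM in control LPS and 1.98, 1.59 and 1.92 CPM in control vehicle libraries. It rose with LPS in both (Dicer KO log2 fold change 1.62, control 2.62), and the 2 genotypes overlapped in LPS but not in vehicle. Zfp691 measured 11.9, 11.3 and 9.87 CPM in Dicer KO LPS, 2.42, 2.06 and 2.33 CPM in Dicer KO vehicle, 5.90, 5.57 and 6.02 CPM in control LPS and 2.23, 1.96 and 2.42 CPM in control vehicle libraries, higher with LPS in Dicer KO by a log2 fold change of 2.27 and in control by 1.40. Zfp459, a KRAB gene, measured 1.28, 2.03 and 1.28 CPM in Dicer KO LPS, 0.419, 0.257 and 0.233 CPM in Dicer KO vehicle, 3.93, 2.85 and 3.16 CPM in control LPS and 0.202, 0.244 and 0.167 CPM in control vehicle libraries, and its rise in control (log2 fold change 3.97 ± 0.30 SE, adjusted p = 4.30e-10) stood above that in Dicer KO (log2 fold change 2.30 ± 0.34 SE, adjusted p = 5.01e-06). An opposite-strand gene covers 12.5% of the exon bases of Zfp459, and the strand setting of the counting is not given in the sources used here.

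**Figure D3:**
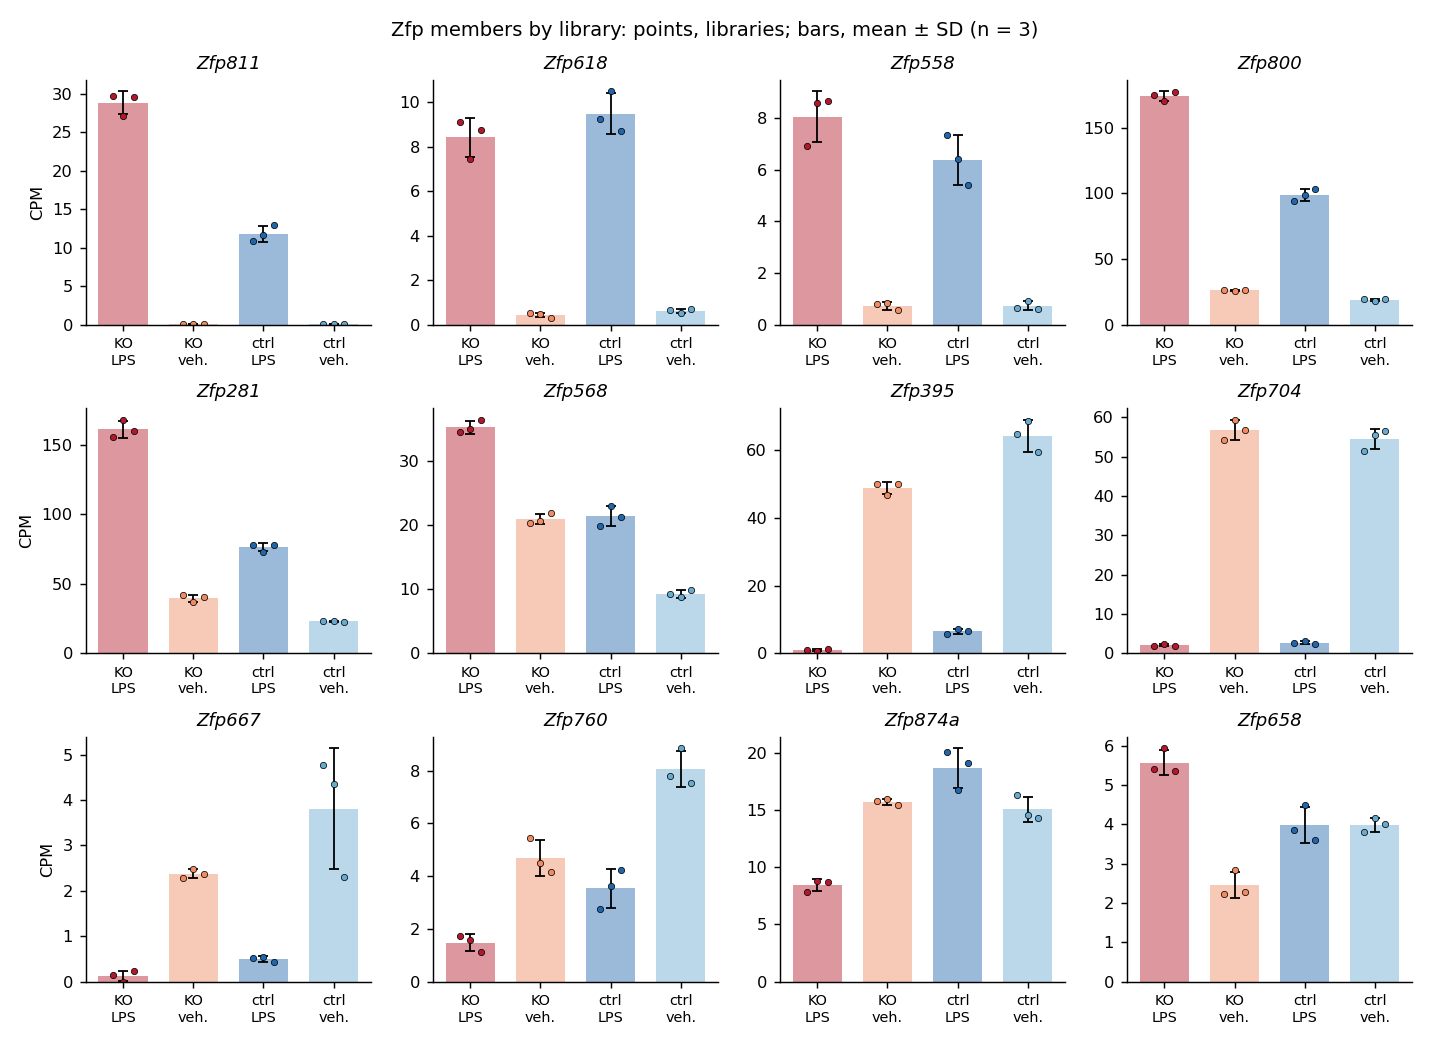
Level in CPM (vertical axes, starting at 0) of 12 members in each of the 12 libraries, with points for libraries, bars for group means and error bars for SD (n = 3). Zfp811 stands at 27.1 to 29.8 CPM in Dicer KO LPS and 10.9 to 12.96 CPM in control LPS, and Zfp395 and Zfp704 are high in both vehicle groups and low with LPS.

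Among members lower with LPS, a related pair of genes without a KRAB pattern, each with 1 C2H2 pattern, had the largest fold changes. Zfp395 (ENSMUSG00000034522, GRCm38 chr14:65358389-65398930, plus strand), whose human counterpart ZNF395 is a transcription factor induced by low oxygen, measured 0.902, 0.751 and 1.21 CPM in Dicer KO LPS, 50.03, 46.9 and 49.9 CPM in Dicer KO vehicle, 5.57, 7.20 and 6.64 CPM in control LPS and 64.7, 68.8 and 59.4 CPM in control vehicle libraries. Every LPS library was far below every vehicle library, and within LPS the Dicer KO libraries were below the control libraries. It was 51.05-fold lower with LPS in Dicer KO (log2 fold change −5.67 ± 0.13 SE, adjusted p = 1.36e-17) and 9.91-fold lower in control (log2 fold change −3.31 ± 0.09 SE, adjusted p = 1.02e-16). Egln3 and Vegfa, genes induced by low oxygen and looked at after earlier results were known, had lower means in Dicer KO and with LPS. The fall of Egln3 with LPS in control was not called (log2 fold change −0.63, edgeR adjusted p = 0.158). Egln3 averaged 2.51 ± 0.755 CPM in Dicer KO LPS, 16.8 ± 9.76 CPM in Dicer KO vehicle, 45.2 ± 10.4 CPM in control LPS and 70.03 ± 16.9 CPM in control vehicle. Vegfa averaged 4.74 ± 2.61 CPM in Dicer KO LPS, 26.3 ± 12.6 CPM in Dicer KO vehicle, 40.1 ± 7.09 CPM in control LPS and 133 ± 55.7 CPM in control vehicle, and the part of either in the values of Zfp395 was not tested. Zfp704 (ENSMUSG00000040209, GRCm38 chr3:9427020-9610085, minus strand) measured 1.80, 2.40 and 1.96 CPM in Dicer KO LPS, 54.3, 59.3 and 56.6 CPM in Dicer KO vehicle, 2.49, 3.15 and 2.42 CPM in control LPS and 51.5, 55.4 and 56.5 CPM in control vehicle libraries, and fell in Dicer KO (log2 fold change −4.78 ± 0.11 SE, adjusted p = 4.54e-18) and in control (log2 fold change −4.34 ± 0.10 SE, adjusted p = 6.00e-18) with genotypes that overlapped in vehicle. The opposite-strand gene C030034L19Rik covers 16.6% of its exon bases.

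The other members named for their falls, all with a group mean of at least 2 CPM, had the KRAB pattern, while Zfp541, without the pattern and below that level, was also called lower with LPS in both genotypes. Zfp667 measured 0.150, 0 and 0.226 CPM in Dicer KO LPS, 2.28, 2.47 and 2.38 CPM in Dicer KO vehicle, 0.524, 0.545 and 0.434 CPM in control LPS and 4.78, 4.36 and 2.30 CPM in control vehicle libraries, with 5 counts in all in Dicer KO LPS. Its levels with LPS were below all vehicle levels in both genotypes (Dicer KO log2 fold change −4.17 ± 0.52 SE, adjusted p = 6.67e-07 and control log2 fold change −2.91 ± 0.33 SE, adjusted p = 2.51e-07). The other falls named were Zfp931 (−2.87 in Dicer KO and −1.52 in control), Zfp970 (−2.59 and −1.71), Zfp661 (−2.30 and −2.24), Zfp763 (−2.21 and −1.92) and Zfp113 (−1.59 and −1.77), as log2 fold changes with Dicer KO first, and all were called in both genotypes. These genes averaged 3.33 to 5.82 CPM in Dicer KO vehicle. Close copies of KRAB genes can share reads, and 9.86 to 11.6% of all reads did not align to a unique place, so the level of a gene in a cluster of copies is uncertain.

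In some of the 12 runs most members were lower with LPS, and in others the calls were mixed. Of all genes 42.7% were lower with LPS in Dicer KO and 41.1% in control. In the run of 7 members from Zfp180 to Zfp94 at chr7:24081924-24316666, 6 with the KRAB pattern, the median log2 fold change was −1.50 in Dicer KO and −1.20 in control. In it Zfp108, Zfp109, Zfp111, Zfp235, Zfp61 and Zfp94 were lower in both genotypes, and Zfp180 was higher in both (0.22 and 0.18), though lower with library totals as the scale (−0.53 and −0.34) and not called in either without the filter on low counts (adjusted p = 0.0717 and 0.226). Its call in control was lost when either control library numbered 1 was left out, the vehicle or the LPS one (edgeR adjusted p = 0.0557 and 0.053). The run of 6 from Zfp787 to Zfp28 at chr7:6131491-6396915 had 5 members lower and none higher in each genotype, with medians of −0.81 in Dicer KO and −0.57 in control. In the longest run, on chromosome 13, 9 of 20 were lower and 3 higher in Dicer KO and 7 lower and 4 higher in control, with medians of −0.18 and −0.07. The run of 17 on chromosome 17 had 8 lower and 1 higher in Dicer KO, and 9 lower and 2 higher in control. In the run of 6 from Zfp398 to Zfp746 on chromosome 6, 3 were lower and 2 higher in Dicer KO. In control 2 of these 6 were lower and 1 higher. The medians over all members on chromosome 7 were −0.66 in Dicer KO and −0.58 in control, against −0.27 and −0.17 outside chromosomes 7, 13 and 17. These sets also differed in level, with a median of 5.49 CPM on chromosome 7 and 13.4 CPM outside the 3 chromosomes. Protein-coding genes at 2 to 20 CPM had medians of −0.55 and −0.40, and the part of level in the contrast was not tested. Runs were described and not tested.

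The genotype comparisons ask how the members stood in macrophages with Dicer1 deleted. In vehicle 29 of 293 members were higher in Dicer KO and 67 lower, with a median log2 fold change of −0.06, while 46.2% of all genes were called, 25% higher and 21.2% lower. In LPS 46 were higher and 104 lower, with a median of −0.16, while 55.8% of all genes were called, 28.8% higher and 27% lower. The median over all genes was 0.0077 in vehicle and −0.026 in LPS. Members called higher were 9.90% in vehicle and 15.7% in LPS, below the shares of all genes, and members called lower were 22.9% and 35.5%. Between 2 and 20 CPM, 23.4% of members and 27.4% of protein-coding genes were lower in vehicle, and 38.3% and 37.02% in LPS. At that level 5.97% of members and 14.2% of protein-coding genes were higher in vehicle, and 11.9% and 16.04% in LPS. At a fold of at least 2, 2 members were called higher and 3 lower in vehicle, and 5 higher and 24 lower in LPS. In vehicle these were Zfp366 and Zfp568, higher, and Zfp583, Zfp462 and Zfp541, lower, and the 5 higher in LPS were Zfp811, Zfp366, Zfp213, Zfp473 and Zfp281. Zfp541, named after its values were seen, had means below 2 CPM in every group. Without control vehicle replicate 2 the members called lower in vehicle numbered 44, and when that pair of libraries was left out they numbered 78, with 26 higher, and 50 were higher and 103 lower in LPS. With library totals as the scale 14 were higher and 113 lower in vehicle, and 16 higher and 200 lower in LPS.

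Of the 165 KRAB members, 37 (22.4%) were lower and 8 (4.85%) higher in Dicer KO in vehicle. In LPS 54 (32.7%) of them were lower and 18 (10.9%) higher. Of the 128 other members, 30 (23.4%) were lower and 21 (16.4%) higher in vehicle, and 50 (39.1%) lower and 28 (21.9%) higher in LPS. Among all genes 21.2% were lower and 25% higher in vehicle, and 27% lower and 28.8% higher in LPS. The median of KRAB members was −0.10 in vehicle and −0.19 in LPS, beside −0.0057 and −0.14 for members without the pattern. Between 2 and 20 CPM the medians in vehicle were −0.13 for KRAB members, −0.058 for the others and −0.076 for protein-coding genes. In LPS at that level they were −0.19, −0.31 and −0.21, with 32.1%, 50.7% and 37.02% called lower. There the others stood lower than the KRAB members, and the classes were not tested against each other. Called in both comparisons were 19 members higher in both, 42 lower in both and 5 in opposite directions, with 113 called in neither. Over all 13837 genes 2222 were higher in both, 1629 lower in both and 546 opposite. Across members the vehicle and LPS differences, which share no library, correlated with r = 0.524 and rho = 0.448. The 5 opposite members were Zfp658, Zfp945, Zfp952 and Zfp46, lower in Dicer KO vehicle and higher in Dicer KO LPS, and Zfp526, higher in Dicer KO vehicle and lower in Dicer KO LPS.

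**Figure D4:**
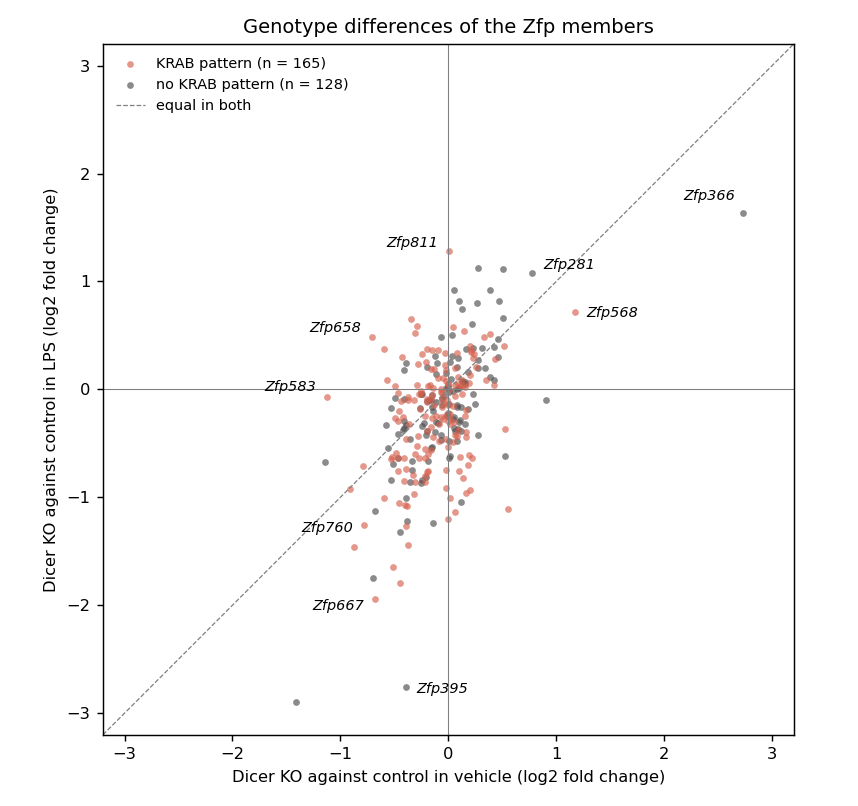
Log2 fold change of Dicer KO against control for each of the 293 members in LPS (vertical axis) and in vehicle (horizontal axis), coloured by the KRAB pattern, with the dashed line marking equal differences. Zfp395 lies at −2.76 in LPS and −0.39 in vehicle, and Zfp281 and Zfp568 lie above 0 on both axes. Zfp366 rests on 1 count in control vehicle.

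Of members higher in Dicer KO vehicle, Zfp568 (ENSMUSG00000074221, GRCm38 chr7:29983955-30028282, plus strand) had the largest difference by the naming rule. It is a KRAB gene whose protein silences the placental transcript of Igf2 in mice. With levels of 34.5, 34.996 and 36.5 CPM in Dicer KO LPS, 20.4, 20.6 and 21.9 CPM in Dicer KO vehicle, 19.9, 23.005 and 21.3 CPM in control LPS and 9.27, 8.72 and 9.86 CPM in control vehicle libraries, every Dicer KO library was above every control library of the same treatment. It was 2.26-fold higher in Dicer KO in vehicle (log2 fold change 1.18 ± 0.08 SE, adjusted p = 1.02e-09) and 1.65-fold higher in LPS (log2 fold change 0.72 ± 0.07 SE, adjusted p = 1.08e-07). Zfp281 was also higher in both, 1.72-fold higher in Dicer KO in vehicle (log2 fold change 0.78 ± 0.06 SE, adjusted p = 9.04e-09) and 2.11-fold higher in LPS (log2 fold change 1.08 ± 0.05 SE, adjusted p = 1.60e-11), with no overlap at the levels given above. Zfp503 was higher in Dicer KO in vehicle (log2 fold change 0.91 ± 0.15 SE, adjusted p = 0.00011) and not called in LPS (log2 fold change −0.10, though −0.45 and called with library totals as the scale, adjusted p = 0.00254). Zfp456, a KRAB gene of the chromosome 13 run, was higher in vehicle (log2 fold change 0.52 ± 0.12 SE, adjusted p = 0.00236), with 52.5% of its exon bases covered by an opposite-strand gene. Zfp72 (log2 fold change 0.52 ± 0.20 SE, adjusted p = 0.0356) and Zfp951 (log2 fold change 0.52 ± 0.17 SE, adjusted p = 0.0157) completed the 6. The call of Zfp951 was lost without control vehicle replicate 2 (adjusted p = 0.0711), and that of Zfp72 without control vehicle replicate 1 (adjusted p = 0.164) or Dicer KO vehicle replicate 2 (adjusted p = 0.175). Zfp72 was also not called with the DESeq2 Wald test (adjusted p = 0.11), library totals (0.102), no filter on low counts (0.0867), only the compared libraries in the fit (0.0645) or without the pair of libraries apart from their groups (0.14). With library totals Zfp951 was not called either (adjusted p = 0.0589).

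The region around the start of Zfp281 is shown because this gene was higher both in Dicer KO and with LPS, RefSeq on GRCm38.p6, chr1:136624651-136624950, plus strand, 5′ to 3′, with the 1 motif match in capitals (the hypoxia response core on the opposite strand).
Zfp281 promoter: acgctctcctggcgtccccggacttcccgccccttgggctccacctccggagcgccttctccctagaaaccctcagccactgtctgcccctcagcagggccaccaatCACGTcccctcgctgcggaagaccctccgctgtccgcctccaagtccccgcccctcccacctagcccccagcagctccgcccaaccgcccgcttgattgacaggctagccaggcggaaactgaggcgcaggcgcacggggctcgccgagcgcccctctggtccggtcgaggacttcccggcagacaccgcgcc
It has 27 CpG and 70.7% GC, against 5 CpG in the window of Zfp811. The median was 10 CpG in 148 promoters of KRAB members, 20.5 in 100 of other members and 7 in all promoters.

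The largest falls in Dicer KO vehicle were those of Zfp541 (log2 fold change −1.42) and Zfp462 (−1.15), both without the KRAB pattern and on average below 2 CPM in each of these groups. Of the members with a group mean of at least 2 CPM and no overlap, the 6 with the largest falls all had the pattern. Zfp583 measured 1.12, 1.03 and 1.31 CPM in Dicer KO vehicle and 2.59, 2.69 and 2.30 CPM in control vehicle (log2 fold change −1.13 ± 0.22 SE, adjusted p = 0.000368). Zfp94 measured 2.28, 2.16 and 2.38 CPM in Dicer KO vehicle and 3.80, 4.03 and 4.01 CPM in control vehicle (log2 fold change −0.79 ± 0.16 SE, adjusted p = 0.00071). In both, each Dicer KO library was below each control library. Zfp760 measured 1.73, 1.58 and 1.13 CPM in Dicer KO LPS, 5.44, 4.48 and 4.15 CPM in Dicer KO vehicle, 2.75, 3.63 and 4.22 CPM in control LPS and 7.81, 8.84 and 7.52 CPM in control vehicle libraries, and was lower in Dicer KO in vehicle (log2 fold change −0.78 ± 0.14 SE, adjusted p = 0.000249) and in LPS (log2 fold change −1.26 ± 0.22 SE, adjusted p = 0.000108). Zfp658, whose human counterpart is a zinc-sensitive repressor, was lower in vehicle (log2 fold change −0.71 ± 0.15 SE, adjusted p = 0.00067), as was Zfp810 (log2 fold change −0.60 ± 0.13 SE, adjusted p = 0.00134). Zfp14 was lower too (log2 fold change −0.60 ± 0.23 SE, adjusted p = 0.0392), a call lost without control vehicle replicate 1 or 2 or Dicer KO vehicle replicate 2 or 3 (adjusted p = 0.103, 0.0968, 0.0893 and 0.183) or with the DESeq2 Wald test (adjusted p = 0.0764).

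Beside Zfp811 and Zfp281, 4 members were named for their rise in Dicer KO in LPS. Zfp366 stood at 2.55, 2.55 and 3.09 CPM in Dicer KO LPS and 0.852, 1.09 and 0.682 CPM in control LPS (log2 fold change 1.63 ± 0.27 SE, adjusted p = 4.62e-05). Zfp473, whose human counterpart takes part in histone mRNA processing, measured 4.28, 3.23 and 3.24 CPM in Dicer KO LPS and 1.18, 1.94 and 1.80 CPM in control LPS (log2 fold change 1.12 ± 0.21 SE, adjusted p = 0.000193). Zfp385a (HZF), an RNA-binding partner of p53, measured 138, 133 and 139 CPM in Dicer KO LPS and 70.7, 66.1 and 79.3 CPM in control LPS (log2 fold change 0.93 ± 0.06 SE, adjusted p = 7.31e-10). Neither gene overlapped between genotypes. Zfp213 was higher as well (log2 fold change 1.13 ± 0.18 SE, adjusted p = 4.08e-05), and opposite-strand genes cover 56.6% of its exon bases.

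Of members with a group mean of at least 2 CPM, the largest fall in Dicer KO LPS was again that of Zfp395, 6.77-fold lower than in control LPS (log2 fold change −2.76 ± 0.19 SE, adjusted p = 8.27e-10). In vehicle it was lower in Dicer KO by a log2 fold change of −0.39, with libraries at 50.03, 46.9 and 49.9 CPM in Dicer KO and 64.7, 68.8 and 59.4 CPM in control. Zfp362 measured 6.91, 5.78 and 5.50 CPM in Dicer KO LPS and 13.8, 14.1 and 15.01 CPM in control LPS (log2 fold change −1.24 ± 0.10 SE, adjusted p = 1.01e-08), and Zfp775 measured 2.48, 2.48 and 1.66 CPM in Dicer KO LPS and 5.50, 5.81 and 5.21 CPM in control LPS (log2 fold change −1.32 ± 0.18 SE, adjusted p = 7.24e-06). The 2 genotypes did not overlap in LPS for either gene. Zfp174 measured 0.827, 1.28 and 0.301 CPM in Dicer KO LPS, 3.07, 2.11 and 2.19 CPM in Dicer KO vehicle, 2.03, 2.72 and 3.35 CPM in control LPS and 4.37, 4.81 and 2.80 CPM in control vehicle libraries. In LPS the Dicer KO libraries were below the control libraries (log2 fold change −1.75 ± 0.38 SE, adjusted p = 0.00098) and below Dicer KO vehicle (log2 fold change −1.61). Zfp398, the counterpart of human ZER6 (log2 fold change −1.44 ± 0.30 SE, adjusted p = 0.000515), and Zfp760 completed the falls named.

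The difference of the LPS responses, Dicer KO minus control, tests whether LPS acted to a different extent in the 2 genotypes. It was called higher in 29 members and lower in 53, with a median of −0.10, while 33.7% of all genes were called, 14.9% higher and 18.8% lower, with a median of −0.042. With library totals as the scale it was higher in 13 members and lower in 113. Zfp395 had the largest, a log2 difference of −2.37 ± 0.21 SE, adjusted p = 1.80e-07, between responses of −5.67 in Dicer KO and −3.31 in control. Zfp874a, a KRAB gene of the chromosome 13 run, measured 7.81, 8.79 and 8.74 CPM in Dicer KO LPS, 15.8, 15.96 and 15.4 CPM in Dicer KO vehicle, 20.1, 16.7 and 19.1 CPM in control LPS and 16.3, 14.5 and 14.3 CPM in control vehicle libraries. It fell with LPS in Dicer KO (−0.89) and rose in control (0.31, though −0.22 with library totals as the scale), a difference of −1.20 ± 0.13 SE, adjusted p = 1.62e-06. Zfp931 fell in both and more in Dicer KO (difference −1.35 ± 0.37 SE, adjusted p = 0.00947), and Zfp459 rose in both and less in Dicer KO (difference −1.67 ± 0.52 SE, adjusted p = 0.0197). Without Dicer KO vehicle replicate 1 the difference of Zfp459 was not called (adjusted p = 0.102).

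In the other direction stood 4 KRAB genes. Zfp658 measured 5.41, 5.93 and 5.35 CPM in Dicer KO LPS, 2.23, 2.83 and 2.29 CPM in Dicer KO vehicle, 3.87, 4.48 and 3.60 CPM in control LPS and 3.80, 4.16 and 4.01 CPM in control vehicle libraries. It rose with LPS in Dicer KO (1.19), while its control LPS and control vehicle libraries overlapped, a difference of 1.19 ± 0.21 SE, adjusted p = 0.000227. Zfp945 stood at 8.57, 9.16 and 8.13 CPM in Dicer KO LPS and 10.6, 8.65 and 8.21 CPM in Dicer KO vehicle, and at 5.57, 5.45 and 5.46 CPM in control LPS and 11.9, 11.6 and 11.4 CPM in control vehicle. It overlapped between treatments in Dicer KO and fell in control (difference 0.99 ± 0.16 SE, adjusted p = 9.21e-05). Zfp952 rose with LPS in Dicer KO (0.84, though 0.088 and not called with library totals as the scale, adjusted p = 0.354) and its control libraries overlapped, with a difference of 0.87 ± 0.13 SE, adjusted p = 3.68e-05. For Zfp583 the difference was 1.06 ± 0.34 SE, adjusted p = 0.021, and it was not called without control LPS replicate 1 or 2 or Dicer KO LPS replicate 1 or 3 (adjusted p = 0.0524, 0.0506, 0.059 and 0.0615) or with library totals as the scale (adjusted p = 0.0546).

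Members with roles in RNA and ribosomes, 10 genes of a chosen list, were all tested. In Dicer KO 3 were higher and 1 lower in vehicle, and 3 higher and 3 lower in LPS, where 25% of all genes were higher and 21.2% lower in vehicle, and 28.8% higher and 27% lower in LPS. With LPS 2 were higher and 5 lower in Dicer KO, beside 37.4% and 42.7% of all genes, and 6 higher and 4 lower in control, beside 38% and 41.1%. For 10 genes these counts are too few to be read against the shares. The list medians were 0.09 and −0.0025 for genotype in vehicle and LPS, and −0.11 and 0.17 for LPS in Dicer KO and control. Zfp598, the ubiquitin ligase that marks collided ribosomes, measured 15.4, 20.1 and 20.7 CPM in Dicer KO LPS, 31.1, 31.98 and 32.6 CPM in Dicer KO vehicle, 28.7, 30.6 and 29.6 CPM in control LPS and 37.9996, 34.4 and 36.5 CPM in control vehicle libraries. It was lower in Dicer KO in LPS (log2 fold change −0.66 ± 0.09 SE, adjusted p = 3.80e-06), where the genotypes did not overlap. Zfp207 was 2.35-fold higher with LPS in Dicer KO and 2.06-fold higher in control, at 262, 269 and 273 CPM in Dicer KO LPS and 121, 111 and 109.7 CPM in Dicer KO vehicle. Zfp622, whose yeast relative acts on the large ribosomal subunit, was lower with LPS in Dicer KO (−0.32) and in control (−0.40).

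Of 8 KRAB and related genes known for silencing imprinted genes or endogenous retroviruses, 4 were members. Zfp57, Zfp819, Zfp708 and Zfp42 did not reach the count rule. Zfp445, which maintains imprints with Zfp57, measured 34.2, 31.6 and 33.7 CPM in Dicer KO LPS, 38.3, 33.4 and 35.3 CPM in Dicer KO vehicle, 39.8, 46.6 and 50.4 CPM in control LPS and 36.7, 38.01 and 34.1 CPM in control vehicle libraries. It was lower in Dicer KO in LPS (log2 fold change −0.46 ± 0.08 SE, adjusted p = 0.000102) without overlap, and rose with LPS in control (0.33, though −0.19 with library totals as the scale). Zfp809, which binds the primer binding site of murine leukaemia virus, measured 1.73, 2.48 and 2.33 CPM in Dicer KO LPS, 6.05, 5.97 and 5.23 CPM in Dicer KO vehicle, 2.42, 2.85 and 3.22 CPM in control LPS and 5.46, 6.03 and 4.68 CPM in control vehicle libraries, and fell with LPS in Dicer KO (log2 fold change −1.40 ± 0.18 SE, adjusted p = 6.47e-07) and in control (log2 fold change −0.93 ± 0.16 SE, adjusted p = 3.28e-05). Zfp932, known to silence endogenous retroviruses in embryonic stem cells, also fell in Dicer KO (log2 fold change −1.57 ± 0.15 SE, adjusted p = 2.25e-08) and in control (log2 fold change −1.16 ± 0.13 SE, adjusted p = 2.35e-07). Zfp568 rose with LPS in Dicer KO (0.75) and in control (1.21), and with library totals as the scale its value in Dicer KO was 0.0034 and not called (adjusted p = 0.966).

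Of 22 genes listed for transcription and chromatin, 20 were tested, 19 of them members, and Zfp532 was tested without meeting the count rule. In Dicer KO 5 were higher and 4 lower in vehicle, and 6 higher and 4 lower in LPS, beside 25% and 21.2% of all genes in vehicle and 28.8% and 27% in LPS, so the counts in vehicle were near those of genes in general. With LPS 10 were higher and 8 lower in Dicer KO, and 9 higher and 7 lower in control, with medians of 0.23 and 0.07, where all genes had 37.4% higher and 42.7% lower in Dicer KO and 38% and 41.1% in control. Zfp131, a protein with a POZ domain, rose in both, to 45.8, 53.5 and 52.4 CPM in Dicer KO LPS against 21.2, 20.6 and 19.6 CPM in Dicer KO vehicle, and to 50.6, 55.998 and 60.3 CPM in control LPS against 15.8, 17.8 and 18.1 CPM in control vehicle (Dicer KO log2 fold change 1.31 ± 0.08 SE, adjusted p = 1.96e-11 and control log2 fold change 1.69 ± 0.08 SE, adjusted p = 3.27e-13). Zfp608 fell in both (−1.78 in Dicer KO and −1.44 in control). Zfp687, a partner of ZMYND8, measured 46.7, 42.4 and 42.4 CPM in Dicer KO LPS and 27.97, 29.4 and 28.8 CPM in control LPS, higher in Dicer KO (log2 fold change 0.61 ± 0.06 SE, adjusted p = 1.58e-07). Zfp292 was lower in Dicer KO in vehicle (log2 fold change −0.41 ± 0.10 SE, adjusted p = 0.00265), as was Zfp462, a heterochromatin factor of stem cells (log2 fold change −1.15 ± 0.26 SE, adjusted p = 0.00134), at 0.838, 0.566 and 1.12 CPM in Dicer KO and 1.58, 2.04 and 2.05 CPM in control.

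Of 4 genes listed for signalling, Zfp91, Zfp451 and Zfp580 were members, and Zfp30, which regulates Cxcl1 in mouse airways, was tested below the count rule. Zfp91 measured 184, 180.2 and 183 CPM in Dicer KO LPS, 161, 172 and 165 CPM in Dicer KO vehicle, 152, 143 and 149 CPM in control LPS and 120.3, 121 and 121 CPM in control vehicle libraries. It was higher in Dicer KO in vehicle (log2 fold change 0.46 ± 0.05 SE, adjusted p = 2.85e-07) and in LPS (log2 fold change 0.30 ± 0.05 SE, adjusted p = 2.03e-05), and in both treatments every Dicer KO library was above every control library. With library totals as the scale the value in LPS was −0.05. Zfp580 was lower in Dicer KO in LPS (log2 fold change −1.01 ± 0.29 SE, adjusted p = 0.00715) at levels of 1.43, 0.676 and 0.904 CPM in Dicer KO LPS and 1.64, 2.42 and 1.98 CPM in control LPS.

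The proteins through which KRAB members act were followed as a list of 27 cofactor genes, all tested. In Dicer KO 8 were higher and 6 lower in vehicle, and 6 higher and 14 lower in LPS, with medians of 0.033 and −0.18. Over all genes 25% were higher and 21.2% lower in vehicle, near the shares of the list, and 28.8% and 27% in LPS. With LPS 8 were higher and 14 lower in Dicer KO, and 8 higher and 12 lower in control, beside the shares of all genes given above. Trim28, the partner of the KRAB box, averaged 33.3 ± 0.386 CPM in Dicer KO LPS and 82.7 ± 3.61 CPM in Dicer KO vehicle (log2 fold change −1.31 ± 0.06 SE, adjusted p = 1.61e-13), and 49.1 ± 2.85 CPM in control LPS against 97.9 ± 4.08 CPM in control vehicle (log2 fold change −0.99 ± 0.06 SE, adjusted p = 4.95e-12). It was lower in Dicer KO in LPS (log2 fold change −0.56 ± 0.06 SE, adjusted p = 3.15e-07). Setdb1, named as the partner of Trim28 after its values were seen, fell with LPS in Dicer KO (log2 fold change −1.20 ± 0.06 SE, adjusted p = 1.87e-12) and in control (log2 fold change −1.18 ± 0.06 SE, adjusted p = 1.70e-12) and did not differ by a call between genotypes. Cofactors did not fall together with LPS, since Resf1, a Setdb1 partner, rose in Dicer KO (log2 fold change 1.46) and in control (0.98). Morc3 rose in both too (1.32 and 1.12). Between genotypes in LPS, Resf1 averaged 289 ± 1.61 CPM in Dicer KO and 120.2 ± 5.82 CPM in control (log2 fold change 1.27 ± 0.06 SE, adjusted p = 3.21e-12). Morc3 was higher in Dicer KO in LPS as well (log2 fold change 0.77 ± 0.05 SE, adjusted p = 4.02e-10). Chd3 of the NuRD complex was lower in Dicer KO in LPS (log2 fold change −0.61 ± 0.06 SE, adjusted p = 3.34e-08), as was Mphosph8 of the HUSH complex (log2 fold change −0.81 ± 0.09 SE, adjusted p = 3.56e-07). Hdac1 was higher in Dicer KO in LPS (log2 fold change 0.70 ± 0.05 SE, adjusted p = 2.29e-09). With LPS it rose in Dicer KO (log2 fold change 2.30 ± 0.05 SE, adjusted p = 1.49e-17) and in control (log2 fold change 1.92 ± 0.05 SE, adjusted p = 2.30e-16).

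Because Dicer1 makes microRNAs, the members' coding sequences were searched for the seed matches of 19 microRNAs, a choice made after the expression values were known. A seed is bases 2 to 8 of a microRNA, and a match is its 7-base reverse complement. The 2 microRNAs whose matches were most frequent in KRAB members are shown from RefSeq (GRCm38.p6), with the seed in capitals.
miR-181a-5p: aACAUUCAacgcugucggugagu
miR-23a-3p: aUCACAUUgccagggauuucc
The letters TGAATGT, the match to miR-181a-5p, were in the coding sequence of 67.3% of KRAB members, 26.6% of other members and 11.7% of 11493 other protein-coding genes tested. Per kilobase this was 1.84 matches in KRAB members and 0.0860 in other genes, a ratio of 21.4. For miR-23a-3p the match AATGTGA was in 68.5% of KRAB members, 29.7% of other members and 13.6% of other genes. No other microRNA of the 19 exceeded 24.8% of KRAB members in the coding sequence, and let-7a-5p and miR-155-5p were at 6.06% and 4.24%. In the part of the transcript after the coding sequence, the let-7a-5p match was in 8.53% of all members against 8.19% of other genes. There the miR-155-5p match was in 11.3% of members against 6.98% of other genes.

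The matches recur from one finger repeat to the next, which is why a stretch of each of 2 members is shown. The 91 coding bases of each (GENCODE M21 transcripts, GRCm38, minus strand) are given 5′ to 3′ with the TGAATGT matches in capitals.
Zfp994, chr17:22201235-22201325: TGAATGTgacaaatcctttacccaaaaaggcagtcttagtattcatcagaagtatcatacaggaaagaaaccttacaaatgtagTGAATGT
Zfp442, chr2:150408250-150408340: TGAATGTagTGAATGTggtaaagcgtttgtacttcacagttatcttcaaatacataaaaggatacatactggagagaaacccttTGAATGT
In Zfp994 the first match runs on into AATGTGA, so the 2 motifs can overlap.

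**Figure D5:**
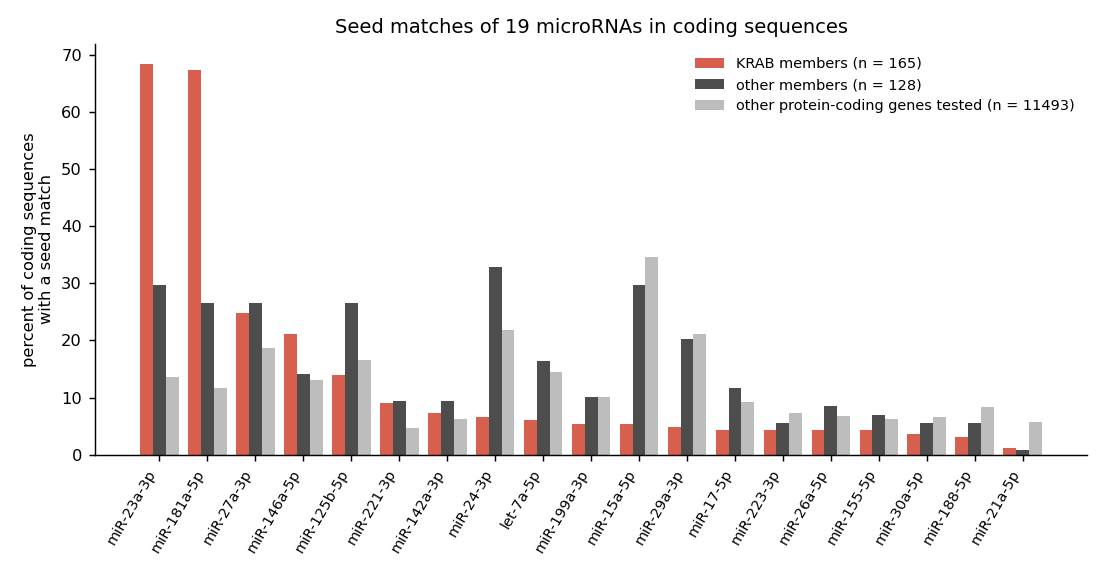
Percent of coding sequences that hold at least 1 seed match of each of 19 microRNAs, for KRAB members, other members and other protein-coding genes tested. miR-23a-3p and miR-181a-5p stand at 68.5% and 67.3% of KRAB members and at 13.6% and 11.7% of other genes.

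Genotype differences were then set beside the number of matches to each of these 2 microRNAs. For miR-181a-5p, of the 79 members with 3 or more, 5 were higher and 21 lower in Dicer KO in vehicle, with a median log2 fold change of −0.09, and 10 were higher and 22 lower in LPS, with a median of −0.10. Of the 148 members with none, 18 were higher and 31 lower in vehicle (median −0.01), and 25 were higher and 61 lower in LPS (median −0.22). Members with 5 or more matches numbered 53, with 3 higher and 11 lower in vehicle and 5 higher and 14 lower in LPS. For miR-23a-3p, the 65 members with 3 or more matches had 7 higher and 12 lower in vehicle (median −0.05) and 8 higher and 18 lower in LPS (median −0.06). The 29 of them with 5 or more had 3 higher and 4 lower in vehicle (median 0.011), and 5 higher and 4 lower in LPS (median 0.041). The 142 members without a miR-23a-3p match had 17 higher and 36 lower in vehicle (median −0.08), and 27 higher and 56 lower in LPS (median −0.17). These bins share members, differ in their part of KRAB members and were not tested against each other. MicroRNA levels were not measured in these libraries of mRNA, and a match of letters does not show that a microRNA acts there.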

How the data were processed

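Counts per gene of 12 polyadenylated, stranded RNA-seq libraries were deposited by the authors, with reads aligned by STAR 2.5 to mm10 (GRCm38.p5), and DESeq2 named without a version, per the submitters' processing notes. Not given in the sources used here are the counting program, its annotation release and its strand setting. Rows that name no gene were left out. They held 45.8 to 46.8% of all counts of a library without a feature and 9.86 to 11.6% not uniquely aligned. Identifiers were matched to GENCODE M21 (45143 of 46078, the rest 0.141% of counts).

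The test was edgeR 4.0.16 in R 4.3.3, robust quasi-likelihood, with filterByExpr and TMM, 1 fit over all 12 libraries and 5 contrasts, and p-values adjusted by Benjamini and Hochberg over 13837 genes. The biological coefficient of variation was 6.30%. DESeq2 1.42.0 and limma 3.58.1 gave alternatives, and the code was tested on simulated counts. Named genes were the 6 largest called changes each way per comparison, 4 for the difference of responses, among members with a group mean of at least 2 CPM and, between pairs of groups, no overlap, with the 6 cofactors of smallest adjusted p and role-list genes beside them. The members and lists were chosen with earlier results of these data known. KRAB and C2H2 patterns were searched in translated GENCODE M21 coding sequences, where a RefSeq protein table had been planned, and can miss divergent domains.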

Additional observations from a re-analysis of the deposited data

Results flagged for a closer look

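Listed here are 12 members whose LPS response differed between Dicer KO and control macrophages by edgeR's test of the difference itself. They are a selection, named above for that difference or, among other members with fold changes given above, differing by at least 2-fold. Called in this test were 82 of the 293 members, beside 33.7% of all genes. Values are log2, Dicer KO minus control, with 3 libraries in each group.

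For Zfp395, the relative of human ZNF395, lower with LPS in both, the responses were −5.67 in Dicer KO and −3.31 in control, a difference of −2.37 (adjusted p = 1.80e-07). Zfp459, a KRAB gene higher with LPS in both, had responses of 2.30 in Dicer KO and 3.97 in control, which differ by −1.67 (adjusted p = 0.0197). For Zfp931, a KRAB gene lower with LPS in both, the responses were −2.87 in Dicer KO and −1.52 in control, a difference of −1.35 (adjusted p = 0.00947). Zfp874a, a KRAB gene called in opposite directions, had responses of −0.89 in Dicer KO and 0.31 in control, which differ by −1.20 (adjusted p = 1.62e-06). For Zfp72, lower with LPS in both, the responses were −2.29 in Dicer KO and −1.15 in control, a difference of −1.14 (adjusted p = 0.0411). Zfp362, lower with LPS in both, had responses of −1.67 in Dicer KO and −0.57 in control, which differ by −1.10 (adjusted p = 4.22e-06). For Zfp398, the counterpart of human ZER6, lower with LPS in both, the responses were −1.94 in Dicer KO and −0.88 in control, a difference of −1.06 (adjusted p = 0.0295). Zfp503, the striatal factor, higher with LPS in both, had responses of 1.62 in Dicer KO and 2.62 in control, which differ by −1.003 (adjusted p = 0.000539). In these 8 the response lay lower in Dicer KO. For Zfp952, a KRAB gene called higher in Dicer KO and not called in control, the responses were 0.84 in Dicer KO and −0.03 in control, a difference of 0.87 (adjusted p = 3.68e-05). Zfp945, a KRAB gene called lower in control and not called in Dicer KO, had responses of −0.09 in Dicer KO and −1.08 in control, which differ by 0.99 (adjusted p = 9.21e-05). For Zfp583, a KRAB gene called lower with LPS in control and not called in Dicer KO, the responses were 0.49 in Dicer KO and −0.56 in control, a difference of 1.06 (adjusted p = 0.021). Zfp658, a KRAB gene called higher in Dicer KO and not called in control, had responses of 1.19 in Dicer KO and −0.00 in control, which differ by 1.19 (adjusted p = 0.000227). In these 4 it lay higher in Dicer KO. With library totals as the scale the control response of Zfp874a was −0.22, and the differences of Zfp459 and Zfp583 were lost without single libraries as given above. The differences of Zfp72, Zfp362, Zfp398 and Zfp503 were not recomputed with libraries left out or with other settings.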

How the results depend on the processing

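Of 2151 gene values recomputed over 108 pairs of gene and comparison, 2112 kept their direction and their side of the threshold, 33 lost the call, 1 gained it and 5 changed sign. All 5 changed sign with library totals as the scale: Zfp91 for genotype in LPS (−0.0499), Zfp180 for LPS in Dicer KO (−0.53) and in control (−0.34), and Zfp445 (−0.19) and Zfp874a (−0.22) for LPS in control. On that scale the members called higher and lower were 14 and 113 for genotype in vehicle, 16 and 200 for genotype in LPS, 21 and 246 for LPS in Dicer KO, 24 and 237 for LPS in control, and 13 and 113 for the difference of responses. That scale moves the median of all genes, as given above. The DESeq2 Wald test called 34 members lower in the difference of responses. Among members with no opposite-strand overlap, 19 were higher for genotype in vehicle and 18 in the difference of responses, from fewer members.

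Leaving out each library in turn gave 23 to 30 higher and 44 to 80 lower members for genotype in vehicle, 39 to 48 and 86 to 105 for genotype in LPS, 60 to 68 and 145 to 158 for LPS in Dicer KO, 61 to 67 and 136 to 150 for LPS in control, and 23 to 32 and 41 to 58 for the difference. Replicate numbers were not shown to pair the libraries, since correlations of same-numbered libraries' deviations ran from −0.204 to 0.163. With the replicate number as a block, members called were 97 against 96 without it for genotype in vehicle, 143 against 150 for genotype in LPS, 221 against 226 for LPS in Dicer KO, 214 in both fits for LPS in control, and 79 against 82 for the difference. Members with few counts limit the depth: 28 averaged under 2 CPM.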
